A study of Mus musculus with 6 samples.

Results

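The guanylate-binding proteins (GBPs) and the immunity-related GTPases (IRGs) are GTPases of the cell's own defence that interferons switch on in most cell types of the mouse. A set of 10 such genes was followed in the mouse pancreas: the GBP genes Gbp2, Gbp3, Gbp4, Gbp6, Gbp7 and Gbp9, and the IRG genes Igtp, Irgm1, Irgm2 and Iigp1. They were picked by name and matched through their Ensembl identifiers, and all 10 had a row among the 22556 genes measured. The choice went by name and set no limit on any measured value, but it was made with earlier results of these data known.

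RNA-sequencing compared the pancreases of 6 mice in 3 groups of 2. All mice were wild type male C57BL/6 animals of 8 weeks. Saline mice were the controls, AP mice received repeated injections of caerulein (cerulein), a peptide that overstimulates the digestive enzyme-making acinar cells and causes acute pancreatitis, and polyI:C-pretreated AP mice received polyI:C, a synthetic double-stranded RNA that mimics viral RNA, before the same caerulein and are called pretreated mice below. A group with polyI:C alone was not analysed here, so the effect of polyI:C was seen only on top of pancreatitis.

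Interferon-γ acts chiefly on a promoter element called GAS and type I interferons chiefly on an element called ISRE, and the genes of both GTPase families can answer to either signal. GBPs assemble on the vacuoles that hold parasites and bacteria and on bacteria in the cytosol, where they help to break the membranes and to start inflammasome signalling. The IRG family has regulators that sit on the cell's own membranes (Irgm1, Irgm2 and Igtp, also called Irgm3) and effectors such as Iigp1 (also called Irga6) that load onto the vacuoles, and the regulators hold the effectors inactive on self membranes.

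Levels are given as TPM, the transcript abundance values that the authors deposited, which are corrected for gene length, so that levels of different genes can be set side by side. Genes were called as risen or fallen when limma gave a p of at most 0.05 after Benjamini-Hochberg adjustment and the fold reached 2, and differences are on the scale log2(TPM + 0.5). Tested were the 16814 genes whose mean reached 1 TPM, among them 9 of the 10 GTPases, Gbp6 being below that level. Spread was shared over all 6 mice. The labels do not say whether the mice of a group came from separate experiments, so p-values measure the spread between these animals. As far as the spacing of low TPM values allowed an estimate, the genes with a row held about 3353114 to 4028005 reads in the saline mice. In the others they held 6830150 to 11056272. Reads on genes without a row, among them most acinar genes listed, are not included, so the depth of the whole libraries is not known. A single read, 1 read on a gene of median length, was then worth 0.182 and 0.221 TPM in saline mice and from 0.0859 to 0.134 TPM in the other 4. Among cell type marker lists, the acinar genes with a row (5 of 20 listed) summed to 1056 and 872 TPM in saline mice, 342 and 291 TPM in AP mice and 643 and 662 TPM in pretreated mice. Duct and islet markers were present as well, as the label pancreas calls for.

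The genes lie in clusters in the GENCODE M21 annotation of GRCm38, the build called mm10 in the labels. On the forward strand of chromosome 3 stand Gbp7 (142530342 to 142550149), Gbp3 (142560026 to 142573209) and Gbp2 (142620602 to 142638008). On the reverse strand of chromosome 5 stand Gbp9 (105077630 to 105139539), Gbp4 (105115767 to 105139586) and Gbp6 (105270702 to 105293698). Chromosome 11 holds Irgm1 (48861968 to 48871683, reverse strand) and the neighbours Igtp (58199556 to 58207591) and Irgm2 (58199618 to 58222782, both forward). All 10 are annotated as protein-coding.

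Promoters are shown because both interferon elements can be read in them. RefSeq promoter sequences (GRCm38.p6) were at hand for 6 of the 10 genes, namely Gbp2, Gbp3, Gbp7, Igtp, Irgm1 and Irgm2. The 250 bases before each RefSeq start were searched on both strands for the ISRE letters GAAANNGAAA and for the GAS letters TTCNNNGAA, where N is any base. The ISRE letters stand in 978 of 32851 promoter windows of that length in the genome (2.98%) and the GAS letters in 2306 (7.02%). All 6 genes have an ISRE match, and Gbp7, Igtp and Irgm2 also have a GAS match. Gbp3 has a second annotated start whose window holds neither. The 30 bases around the ISRE match are given on the strand of the gene, with matched letters in capitals.
Gbp2: ttaggaactcttttagTTTCACTTTCactg
Gbp3: caggacacagTTTCAGTTTCTATTTCccag
Gbp7: aagcctgtgtgtgcagTTTCAGTTTCagtt
Igtp: gccatTTCTAGGAActGAAACTGAAAgctg
Irgm1: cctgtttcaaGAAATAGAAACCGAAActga
Irgm2: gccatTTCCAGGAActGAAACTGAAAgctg

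These windows lie at chr3:142620588-142620617 for Gbp2, chr3:142559989-142560018 for Gbp3, chr3:142530267-142530296 for Gbp7, chr11:58199506-58199535 for Igtp, chr11:48871431-48871460 on the reverse strand for Irgm1 and chr11:58214897-58214926 for Irgm2. In the 3 GBP genes the ISRE letters run on the opposite strand and read as TTTC repeats, and in the 3 IRG genes they run with the gene. The matches begin between 24 and 64 bases before the start that RefSeq gives. GENCODE places the starts elsewhere in some genes, so that the Irgm1 window lies within its exons (250 of the 250 bases searched), 61 of the 250 bases searched for Gbp2 are exonic, and the Irgm2 window lies inside the longer GENCODE gene. In Gbp3 and Irgm1 the letters occur in a pair of overlapping matches, so that 3 repeats follow each other. Igtp and Irgm2 carry the GAS letters directly before the ISRE letters, and their 30 bases agree at 29 positions, the single difference being T9C (Igtp first, counted from the 5′ end of the window). In Gbp7 the GAS matches begin 106 and 87 bases before the start and the ISRE match 53 bases before it. A match of letters is a description and not a site shown to bind a factor.

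The Gbp3 promoter is given over its full 250 bases, since Gbp3 was the GTPase with the largest difference between pretreated and AP mice. It lies at chr3:142559794-142560043 on the forward strand, and capitals mark the overlapping ISRE matches that begin 45 and 39 bases before the start.
Gbp3 promoter: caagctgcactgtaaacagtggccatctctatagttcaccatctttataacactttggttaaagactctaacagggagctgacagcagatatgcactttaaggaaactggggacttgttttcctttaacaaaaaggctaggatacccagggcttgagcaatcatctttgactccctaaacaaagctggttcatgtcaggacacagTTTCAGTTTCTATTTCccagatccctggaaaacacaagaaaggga

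In saline mice, transcripts of the 10 GTPases were present at low levels, with means from 0.225 TPM (Gbp6) to 9.79 TPM (Irgm1). Summed over the 10 genes, the level was 49.1 and 34.2 TPM in saline mice, 84.0 and 141 TPM in AP mice, and 292 and 279 TPM in pretreated mice. The 3 groups did not overlap in this sum. The split between the families stayed within a narrow range, as the IRG genes made up 46.0% to 55.0% of the sum in all 6 mice.

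**Figure D1:**
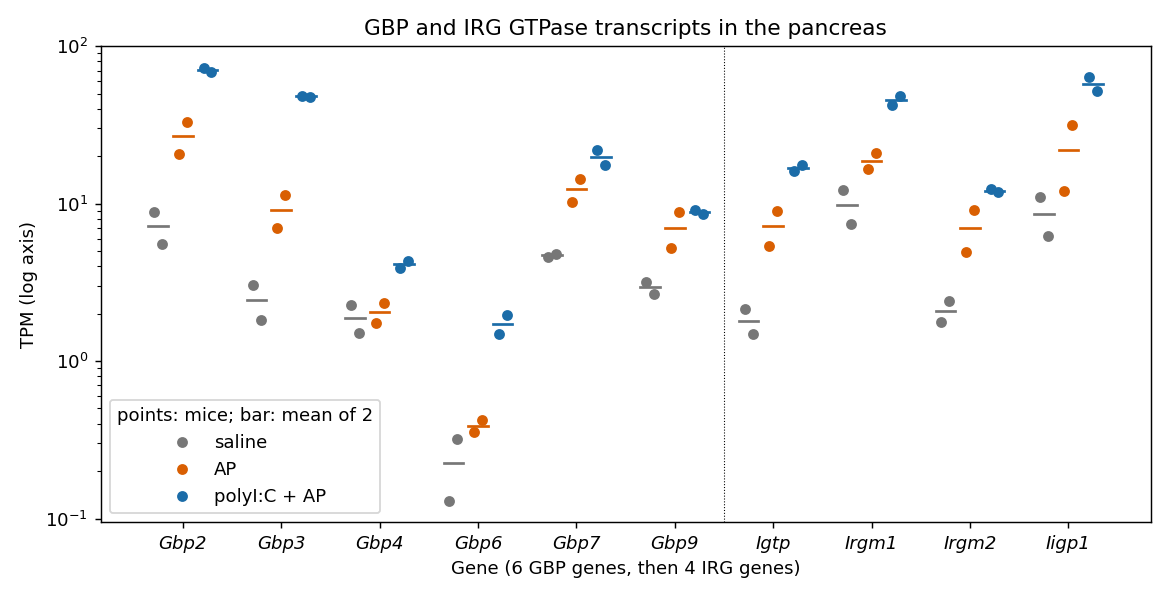
TPM of each GTPase in each mouse on a log axis, with 1 point per mouse, a bar at the mean of the 2 mice and colours for saline, AP and pretreated (polyI:C + AP). The blue points lie above the grey points for all 10 genes, Gbp6 is lowest in every group, and only Gbp9 has an AP mouse (8.81 TPM) between the pretreated mice.

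In caerulein pancreatitis 6 of the 9 tested GTPases rose over saline, namely Gbp2, Gbp3, Gbp7, Gbp9, Igtp and Irgm2, beside 18.2% of all tested genes that rose and 4.03% that fell. No GTPase fell, and 7 of the 9 passed at an unadjusted p with the same fold, beside 20.3% of tested genes. The differences of the 10 genes ran from 0.10 to 1.82 on the log2 scale with a median of 1.24, against a median of 0.45 over all tested genes. That general shift depends on scaling. Under median-of-ratios scaling the median over all genes was 0.06, the calls changed from 3053 up and 677 down to 1566 up and 1221 down, and 4 GTPases still passed, beside 9.31% of tested genes that rose.

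In pretreated mice 9 of the 10 genes were above both AP mice, but most of these differences did not pass. Against AP mice, 1 of the 9 tested GTPases rose, Gbp3, beside 0.44% of all tested genes that rose and 0.404% that fell. The differences of the 10 genes ran from 0.36 to 2.37 with a median of 1.24, against 0.04 over all tested genes. At an unadjusted p of at most 0.05 and the same fold, 5 of 9 passed (Gbp2, Gbp3, Igtp, Irgm1 and Iigp1), beside 1.94% of tested genes. Against saline, 8 of the 9 rose, all but Gbp4, beside 16.9% of tested genes that rose and 2.97% that fell, and 8 also passed unadjusted, beside 19.2%. This came with a median difference over the 10 genes of 2.24 against 0.48 for all tested genes. Median-of-ratios scaling moved that last median to 0.06 and the calls from 2838 up and 500 down to 1325 up and 982 down, and 8 GTPases passed there too. The comparisons share mice, AP mice serving as treated in one and as controls in the other.

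**Figure D2:**
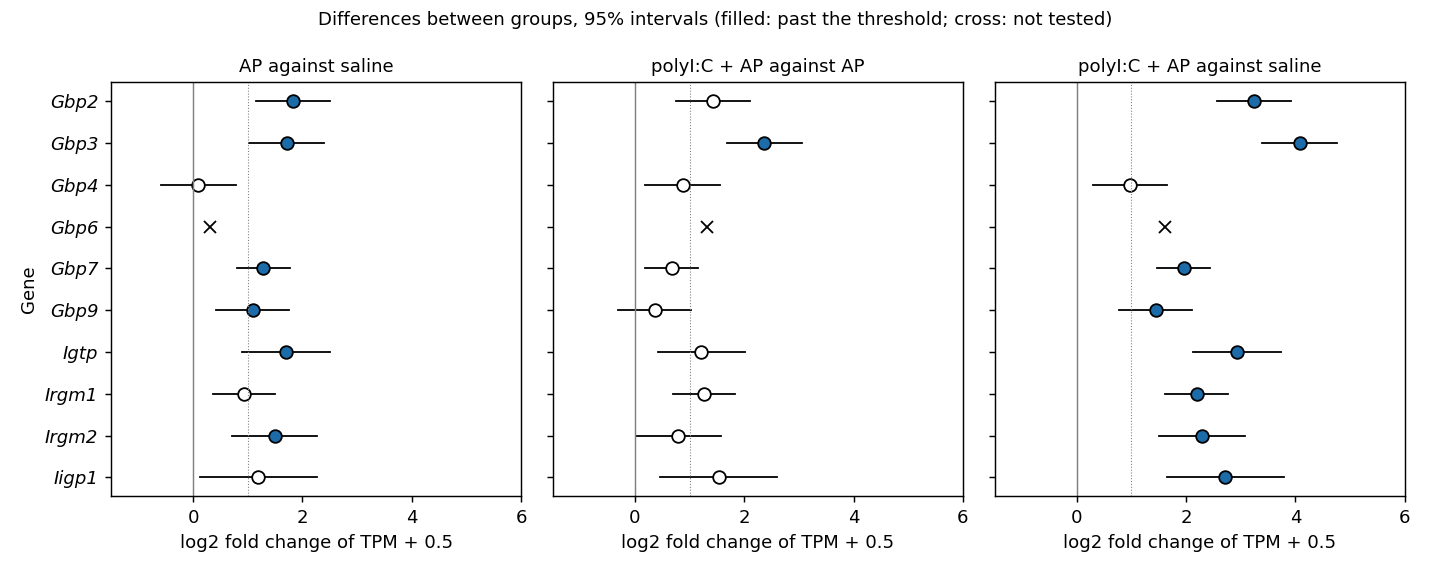
Log2 fold change of TPM + 0.5 for each GTPase in the 3 comparisons, with the 95% interval from limma. Filled points passed the threshold (6, 1 and 8 genes), open points did not, crosses stand for Gbp6, which was not tested, and the dotted line marks a 2-fold difference.

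Gbp2, a prenylated GBP that coats pathogen vacuoles, had the highest mean of the GTPases in AP and in pretreated mice. Its level was 8.82 and 5.56 TPM in saline mice, 20.6 and 33.1 TPM in AP mice, and 73.1 and 69.0 TPM in pretreated mice. The groups were fully separated, in the order saline, AP, pretreated. Gbp2 rose in AP over saline mice (log2 difference 1.82 ± 0.28 SE, limma adjusted p = 0.0027) and in pretreated over saline mice (3.25, adjusted p = 0.00034). The difference between pretreated and AP mice was 1.43, with a 95% interval from 0.75 to 2.10 and an adjusted p of 0.076 in limma.

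Gbp3, its neighbour on chromosome 3, moved furthest. It was measured at 3.06 and 1.81 TPM in saline mice, 6.99 and 11.3 TPM in AP mice, and 48.3 and 47.9 TPM in pretreated mice. The pretreated mice were nearly alike and more than 4 times above the higher AP mouse. Gbp3 rose in AP over saline mice (1.71 ± 0.29 SE, limma adjusted p = 0.0037), in pretreated over AP mice (2.37 ± 0.29 SE, interval 1.69 to 3.05, adjusted p = 0.022), and in pretreated over saline mice (4.08, adjusted p = 0.00017). The second of these calls needed all 6 mice, since its adjusted p lay between 0.058 and 0.28 when any 1 mouse was left out, saline mice included, while the difference stayed between 2.04 and 2.70. The call was also lost with no filter on low values (limma adjusted p = 0.055) and with other priors for the variance (0.087 and 0.14), at the same difference.

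The ratio of Gbp3 to Gbp2 was noticed after the values had been seen and was not tested. It was 0.346 and 0.326 in the saline mice and 0.340 and 0.342 in the AP mice, so both transcripts were higher in the AP mice by about the same factor. In the pretreated mice it was 0.660 and 0.694. As a share of the 10 genes, Gbp3 made up 5.31% to 6.22% in saline mice, 8.04% to 8.32% in AP mice and 16.5% to 17.1% in pretreated mice.

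**Figure D3:**
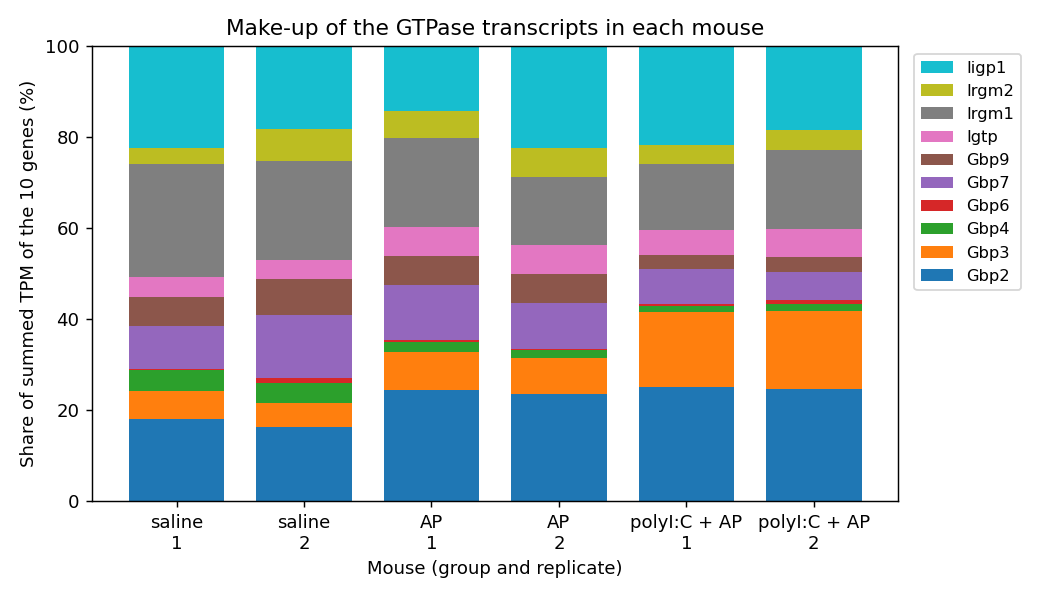
Share of each GTPase in the summed TPM of the 10 genes, 1 bar per mouse, adding up to 100%. The Gbp3 segment is 5.31% at the lowest, in saline, and 17.1% at the highest, after pretreatment, while the segments of Gbp9 and Gbp4 are smaller there than in the saline mice.

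Gbp7 was measured at 4.61 and 4.76 TPM in saline mice, 10.3 and 14.3 TPM in AP mice, and 21.9 and 17.7 TPM in pretreated mice. Its groups did not overlap, yet the step from AP to pretreated was smaller than for Gbp2 and Gbp3. Gbp7 rose in AP over saline mice (1.29 ± 0.20 SE, limma adjusted p = 0.0030) and in pretreated over saline mice (1.96, adjusted p = 0.00066), and differed by 0.67 (interval 0.19 to 1.16, adjusted p = 0.20) between pretreated and AP mice. About 10.01% of its stretches of 100 bases also occur in other transcripts, nearly all in the overlapping pseudogene Gm43802.

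Gbp9, on chromosome 5, was the GTPase whose AP and pretreated mice overlapped. It was measured at 3.20 and 2.67 TPM in saline mice, 5.20 and 8.81 TPM in AP mice, and 9.12 and 8.61 TPM in pretreated mice. It rose in AP over saline mice (1.09 ± 0.28 SE, limma adjusted p = 0.020) and in pretreated over saline mice (1.45, adjusted p = 0.0070). Between pretreated and AP mice the difference was 0.36, with an interval from -0.30 to 1.03 (adjusted p = 0.65) that includes 0. Its share of the 10 genes was 6.19% to 7.82% in the saline and AP mice and 3.08% to 3.12% in pretreated mice.

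Gbp4 shares 60 exonic bases with Gbp9 on the same strand. Its levels were 2.26 and 1.52 TPM in saline mice, 1.76 and 2.33 TPM in AP mice, and 3.92 and 4.35 TPM in pretreated mice. Saline and AP mice overlapped, and both pretreated mice were above all others. The difference of AP from saline mice was 0.10 (interval -0.58 to 0.78, limma adjusted p = 0.82) and changed sign under other scalings and without single mice. Pretreated mice differed from AP mice by 0.87 (adjusted p = 0.24) and from saline mice by 0.97 (adjusted p = 0.034), short of the 2-fold limit.

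Gbp6 was close to the floor of these libraries, at 0.13 and 0.32 TPM in saline mice, 0.36 and 0.42 TPM in AP mice, and 1.49 and 1.96 TPM in pretreated mice. The values in the first 4 mice stand for an estimated 1.1 to 6.6 reads each. Both pretreated mice were above the other 4. With no filter on low values, Gbp6 had a log2 difference of 1.62 from saline (limma adjusted p = 0.030) and of 1.31 from AP mice (adjusted p = 0.26). Of its stretches of 100 bases, 64.5% also occur in Gm43302 or Gbp10, so reads of these copies can be split between them and the level of Gbp6 is uncertain.

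Igtp (Irgm3), a regulator IRG found on the endoplasmic reticulum and lipid droplets, was measured at 2.14 and 1.48 TPM in saline mice, 5.39 and 8.96 TPM in AP mice, and 16.1 and 17.7 TPM in pretreated mice. The 3 groups were separated. Igtp rose in AP over saline mice (1.71 ± 0.34 SE, limma adjusted p = 0.0072; 0.077 with voom on estimated reads) and in pretreated over saline mice (2.93, adjusted p = 0.00095). It differed by 1.22 (interval 0.42 to 2.02, adjusted p = 0.17) between pretreated and AP mice.

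Irgm2 is a regulator found on the Golgi, and in GENCODE its exons share 162 bases with those of Igtp on the same strand. Its values were 1.77 and 2.42 TPM in saline mice, 4.92 and 9.17 TPM in AP mice, and 12.3 and 11.9 TPM in pretreated mice. These groups were separated too. Irgm2 rose in AP over saline mice (1.49 ± 0.33 SE, limma adjusted p = 0.011; 0.085 with voom, so that with voom 0 of the 4 IRG genes passed there) and in pretreated over saline mice (2.29, adjusted p = 0.0021), with a difference of 0.80 (interval 0.02 to 1.58, adjusted p = 0.35) between pretreated and AP mice.

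Irgm1, the third regulator, which protects the cell's own lysosomes and mitochondria and takes part in autophagy, was the most abundant GTPase in saline mice by its mean. It was measured at 12.2 and 7.42 TPM in saline mice, 16.5 and 21.01 TPM in AP mice, and 42.4 and 48.4 TPM in pretreated mice. Its groups were separated, with the wider gap between AP and pretreated. AP mice differed from saline mice by 0.93 ± 0.24 SE (limma adjusted p = 0.020), which stays under the 2-fold limit, and pretreated mice differed from AP mice by 1.26 (interval 0.69 to 1.83, adjusted p = 0.069). Irgm1 rose in pretreated over saline mice (2.19, adjusted p = 0.00079).

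Iigp1 (Irga6), the effector among the 4 IRG genes and encoded on chromosome 18, varied most between mice of a group. Its levels were 10.97 and 6.21 TPM in saline mice, 12.0 and 31.5 TPM in AP mice, and 63.4 and 51.8 TPM in pretreated mice. The lower AP mouse was just above the higher saline mouse, and both pretreated mice were above all others. Iigp1 differed by 1.19 (interval 0.12 to 2.26, limma adjusted p = 0.076) between AP and saline mice and by 1.53 (interval 0.46 to 2.60, adjusted p = 0.19) between pretreated and AP mice, and it rose in pretreated over saline mice (2.72, adjusted p = 0.0038). Neither Iigp1 nor Irgm1 nor Gbp2 shares a stretch of 100 bases with another transcript.

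Set in order of their means, the GTPases changed places between groups. In saline mice Irgm1, Iigp1 and Gbp2 led, with neighbours that overlapped between mice, followed by Gbp7 and by a group of Gbp9, Gbp3, Irgm2, Gbp4 and Igtp in which each overlapped the next. In AP mice Gbp2, Iigp1 and Irgm1 led and overlapped, above Gbp7, Gbp3, Igtp, Irgm2 and Gbp9, which again overlapped in a chain, and Gbp4 and Gbp6 came last. In pretreated mice the order was Gbp2, Iigp1, Gbp3, Irgm1, Gbp7, Igtp, Irgm2, Gbp9, Gbp4 and Gbp6, and Gbp3 with Irgm1 was the only pair of neighbours whose mice overlapped.

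Both mice of a group stood above both mice of the other in 9 of the 10 GTPases for AP over saline (52.6% of tested genes), in 9 of 10 for pretreated over AP (27.7%), and in 10 of 10 for pretreated over saline (54.4%). The exceptions were Gbp4 in the first and Gbp9 in the second.

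In the 6 genes with a promoter sequence, the difference between pretreated and AP mice can be set beside the letters, as a description of 6 genes without a test. Gbp3, Gbp2 and Irgm1, which have ISRE letters only, differed by 2.37, 1.43 and 1.26 on the log2 scale. Igtp, Irgm2 and Gbp7, which have GAS letters as well, differed by 1.22, 0.80 and 0.67. This order did not hold in other genes of the families searched the same way. Gbp2b, with ISRE letters only, differed by -0.28, and Tgtp1, Gbp5 and Tgtp2, with both, differed by 1.29, 0.93 and 0.91. Outside the 2 families, 346 tested genes had ISRE letters in the same window, and 13 of them (3.76%) rose in pretreated over AP mice, against 0.553% of the 10844 tested genes with a promoter sequence. Among 780 tested genes with GAS letters 0.641% rose in that comparison. For AP over saline mice the shares were 26.6% with ISRE letters and 23.3% with GAS letters, against 21% of all genes with a promoter sequence.

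AP mice were not alike in these genes. The second AP mouse was above the first in 10 of 10 GTPases, by a factor from 1.19 (Gbp6) to 2.63 (Iigp1), while it was higher in 51.9% of all tested genes and the median log2 difference between the mice was 0.01. Marker lists also differed between the AP mice. The 4 B cell markers used (Cd79a, Cd79b, Ms4a1 and Cr2) were all highest in the second AP mouse and summed to 40.8 TPM, against 6.33 TPM in the first AP mouse and 2.64 to 13.9 TPM in the other 4. Of the 10 macrophage and monocyte markers 8 were highest in the second AP mouse (sum 3042 against 2600 TPM in the first), and the T and NK cell sum was 10.1 against 4.42 TPM. Elsewhere 3 of 6 dendritic, 3 of 8 stellate and fibroblast, 2 of 7 neutrophil, 2 of 8 duct and 2 of 11 T and NK markers were highest there. For islet markers it was 1 of 8, and for acinar, endothelial and adipocyte markers 0. The share of all tested genes that were highest in that mouse was not determined. Without the second AP mouse, 2 of the 9 GTPases (Gbp2 and Gbp7) passed in AP against saline, beside 11.6% of tested genes that rose in that fit, and 0 of 9 passed in pretreated against AP, where 0% of tested genes rose. With any other mouse left out 0 of 9 passed in the latter too, beside at most 0.285% of tested genes. In pretreated against saline, a comparison without AP mice, the count stayed at 8. The part of such cells in the GTPase values was not tested.

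Markers of other cell types were set beside the GTPases. The 10 macrophage and monocyte markers, Lyz2 being the most abundant, summed to 747 and 480 TPM in saline mice, 2600 and 3042 TPM in AP mice, and 607 and 467 TPM in pretreated mice. Of these 10 markers 8 rose in AP over saline mice, beside 18.2% of all tested genes. In pretreated against AP mice, where the GTPases were higher, 5 of the markers fell, beside 0.404%. In RNA of whole pancreas, fewer cells of a type and less RNA per cell cannot be told apart. By flow cytometry in the caerulein model, the paper reported no effect of polyI:C pretreatment on macrophage infiltration, but fewer neutrophils. That measured cells and not RNA. Neutrophil markers (7 measured) summed to 16.6 and 5.15 TPM in saline mice, 69.7 and 61.1 TPM in AP mice, and 42.7 and 20.6 TPM in pretreated mice. The 11 T and NK cell markers, cells that make interferon-γ, summed to between 4.42 and 11.8 TPM in all mice, with 6 of the 11 listed at 0 in at least 1 mouse. Within that list Gzmb, a gene of cytotoxic granules, was listed at 0 in saline mice. It stood at 0.660 and 0.522 TPM in AP mice and at 4.57 and 3.85 TPM in pretreated mice. Cd3d, which encodes a CD3 chain of the T cell receptor complex, had means of 2.16, 0.991 and 0.571 TPM in the same order of groups. Of the 3 genes of the list that were tested, 1 rose and 0 fell in pretreated over saline mice, beside 16.9% of all tested genes that rose. The median log2 difference of these 3 was -1.02. Endothelial markers stayed between 66.5 and 104 TPM, with 0 of 8 past the threshold in each comparison in limma, at an unadjusted p as well as adjusted, and 0 with voom. What these cells contributed to the GTPase levels was not tested.

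**Figure D4:**
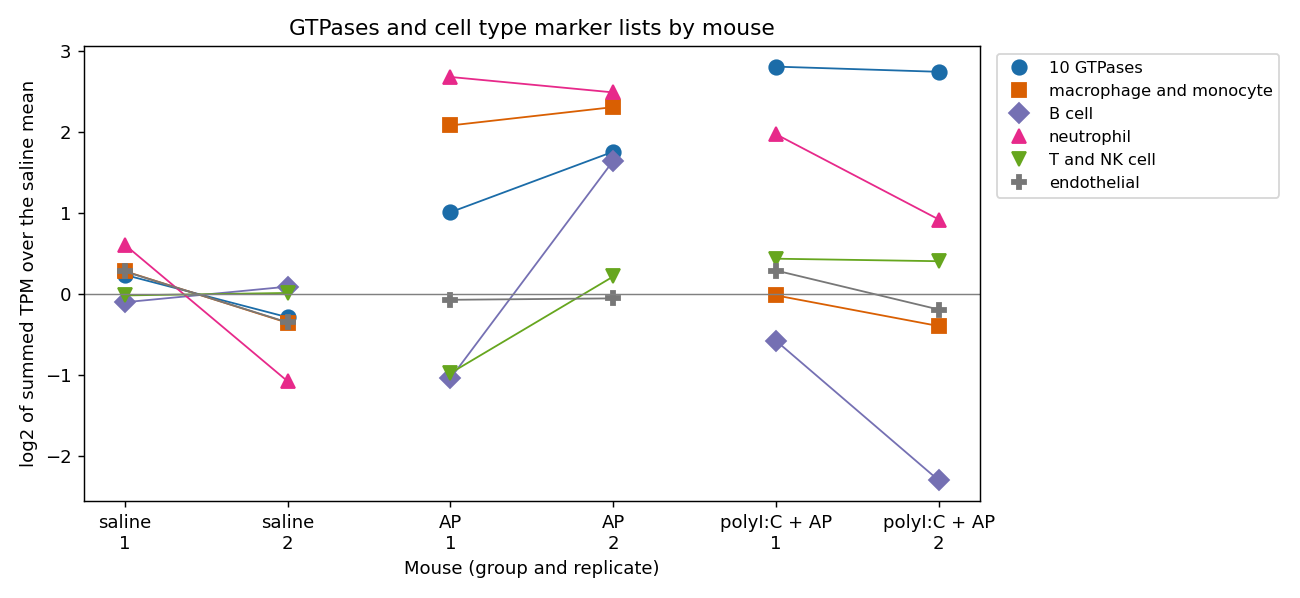
Log2 of the summed TPM of the 10 GTPases and of 5 cell type marker lists in each mouse, relative to the mean of the saline mice, with lines joining mice of a group. Macrophage and monocyte markers are high in the AP mice only, B cell markers are high in the second AP mouse only, and the GTPase sum is highest in the pretreated mice.

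The other genes of the families were at low levels. Of the 14 listed, 13 had a row and 8 were tested, and Gbp11 was not analysed here. None of the 8 passed in AP against saline or in pretreated against AP mice in limma, where 0 and 1 passed at an unadjusted p of at most 0.05 and 0 in each with voom on estimated reads. In pretreated against saline mice 3 of the 8 rose. Of all tested genes 16.9% rose there, 18.2% in AP against saline and 0.44% in pretreated against AP. Gbp5, which acts with the other GBPs in inflammasome signalling, rose from a mean of 0.656 to 2.65 TPM (log2 difference 1.45, limma adjusted p = 0.015). The IRG genes Gm4951 (1.69, adjusted p = 0.025) and F830016B08Rik (2.16, adjusted p = 0.030) also rose.

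Tgtp1 and Tgtp2, a pair of near-identical effector IRGs, had means of 1.27, 1.22 and 3.66 TPM (Tgtp1) and of 2.26, 4.42 and 7.42 TPM (Tgtp2) in saline, AP and pretreated mice, and neither passed. Since 73.1% and 76.8% of their stretches of 100 bases occur in other transcripts, mostly in each other, their separate values are uncertain. Their promoters hold GAS and ISRE letters in the same arrangement as Igtp and Irgm2, and they are printed to show that likeness.
Tgtp1: gccatTTCCAGGAAtcGAAACTGAAAccta
Tgtp2: gccatTTCCAGGAAtcGAAACCGAAAccta

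Over these 30 bases Irgm2 and Tgtp1 agree at 26 positions and Tgtp1 and Tgtp2 at 29. The Tgtp1 window lies at chr11:48992310-48992339 and the Tgtp2 window at chr11:49064269-49064298, both on the reverse strand. Gbp2b, Gbp8, 9930111J21Rik1, 9930111J21Rik2, Gm5431 and Gvin1 had means of at most 2.63 TPM in every group, and none of the 3 that were tested passed. Gbp10 was listed at 0 in the saline and AP mice and had a mean of 0.655 TPM in pretreated mice, and the germ cell gene Irgc1 was at a mean of 0.245 TPM or less in each group. Stretches of 100 bases found in other transcripts made up 73.5% in Gbp10, 97.8% in Gvin1, 70.5% in 9930111J21Rik1 and 48.3% in 9930111J21Rik2. Low values and zeros of these genes are therefore uncertain too.

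The signal that reaches the GTPases was followed through lists of the pathway's other genes, 81 with a row and 72 tested. Together 42 rose and 0 fell in AP against saline, beside 18.2% and 4.03% of all tested genes. In pretreated against AP 11 rose and 3 fell, beside 0.44% and 0.404%. In pretreated against saline 44 rose and 2 fell, beside 16.9% and 2.97%. The same shares stand beside the counts of each list below. Among interferon ligands, receptors and inducing cytokines, 11 of 18 had a row and 8 were tested, and the genes of interferon-γ and of the type I interferons were not analysed here. Of these 8, 5 rose and none fell in AP over saline mice, with Ifnlr1 (1.82), Ifngr2 (1.58) and Ifngr1 (1.27), the receptor chains for interferon-λ and interferon-γ, leading on the log2 scale. None of the 8 passed in pretreated against AP in limma, where 0 passed at an unadjusted p of at most 0.05 and 0 with voom. Against saline 5 rose in limma and 2 with voom. Among the 5 was Il18 (3.77), which in company with IL-12 makes NK and T cells release interferon-γ. Il18 was listed at 0 in 1 saline mouse, and the pretreated mice were far apart, at 6.41 and 34.7 TPM.

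JAK, STAT and IRF genes carry the signal to the promoters. Of 14 tested, 10 rose in AP over saline mice, with the feedback inhibitors Socs3 (2.40) and Usp18 (2.33) and the transcription factor Irf7 (2.00) leading. Irf7, which amplifies type I interferon, was the 1 gene that rose in pretreated over AP mice, from a mean of 4.65 to 79.1 TPM (log2 difference 4.02, limma adjusted p = 0.0037). At an unadjusted p of at most 0.05 and the same fold 4 rose, beside 1.94% of tested genes. In that setting 2 fell, Irf8 (-1.21) and the MHC class II transactivator gene Ciita (-1.48). With voom 4 rose and 0 fell. Irf9, which encodes a DNA-binding part of the factor that reads ISRE elements, differed by 0.99 with an adjusted p of 0.034 in limma, just under the 2-fold limit. Against saline 9 of the 14 rose, led by Irf7 (6.01), Usp18 (4.89) and Irf9 (2.80).

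Genes listed as interferon-γ targets were mixed. Of 11 tested, 8 rose in AP over saline mice, led by the antigen-processing genes Tap1 (2.74), Psmb9 (2.53) and Psmb8 (2.25). In pretreated against AP mice 2 rose, the chemokine gene Cxcl9 (2.57, limma adjusted p = 0.0497) and the virus tether Bst2 (2.39, adjusted p = 0.0027), which is also well known as a type I interferon target, and 3 fell, the MHC class II genes H2-Aa (-2.62), H2-Ab1 (-2.34) and Cd74 (-2.11). The last 3 are genes of antigen-presenting cells. The macrophage and monocyte sum was lower in the same mice, and so was Ciita (-1.48, limma adjusted p = 0.26), which did not pass. Whether the fall of the 3 genes goes back to either was not tested. Against saline 8 rose and 2 fell, with Bst2 (4.07), Ubd (3.48) and Tap1 (3.43) leading. Ubd encodes a ubiquitin-like modifier.

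Targets known chiefly from type I interferon had the highest median of the pathway lists in both comparisons of pretreated mice, but not in AP against saline, where the interferon-γ targets had 1.68. All 16 were tested. In AP over saline mice 12 rose, led by Rsad2 (4.39), Oas1a (2.84) and Rtp4 (2.70), with a list median of 1.45. In pretreated over AP mice 8 of the 16 rose, led by Ifit3b (3.35), Ifit1 (3.23) and Ifi44 (3.08), genes of antiviral effectors, with a list median of 2.27 where the GTPases had 1.24 and all tested genes 0.04. In pretreated over saline mice all 16 rose, led by Oas1a (5.50), Rsad2 (5.24) and Ifit3b (4.85). The difference between this list and the GTPases was not tested.

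Partners that work with GBPs and IRGs at membranes formed the last list, with autophagy conjugation factors, galectins, prenylation enzymes and inflammasome genes. Of 23 tested, 7 rose in AP over saline mice, beside 18.2% of all tested genes. The 7 were led by the galectin Lgals3 (4.71), the autophagy receptor Sqstm1 (2.30) and Map1lc3a (1.99), which encodes an LC3 protein. The list median was 0.67 there, against 0.45 over all tested genes. None passed in pretreated against AP in limma, where 0 passed at an unadjusted p of at most 0.05 and 0 with voom, and the list median was -0.07. Against saline 6 rose, beside 16.9% of all tested genes, led by Lgals3 (4.06), the pore-forming Gsdmd (2.00) and Sqstm1 (1.93). The pretreated mice were far apart in Gsdmd, at 22.1 and 76.2 TPM. The lower of them was below both AP mice (26.1 and 37.1 TPM). Lgals3 is also abundant in macrophages.

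**Figure D5:**
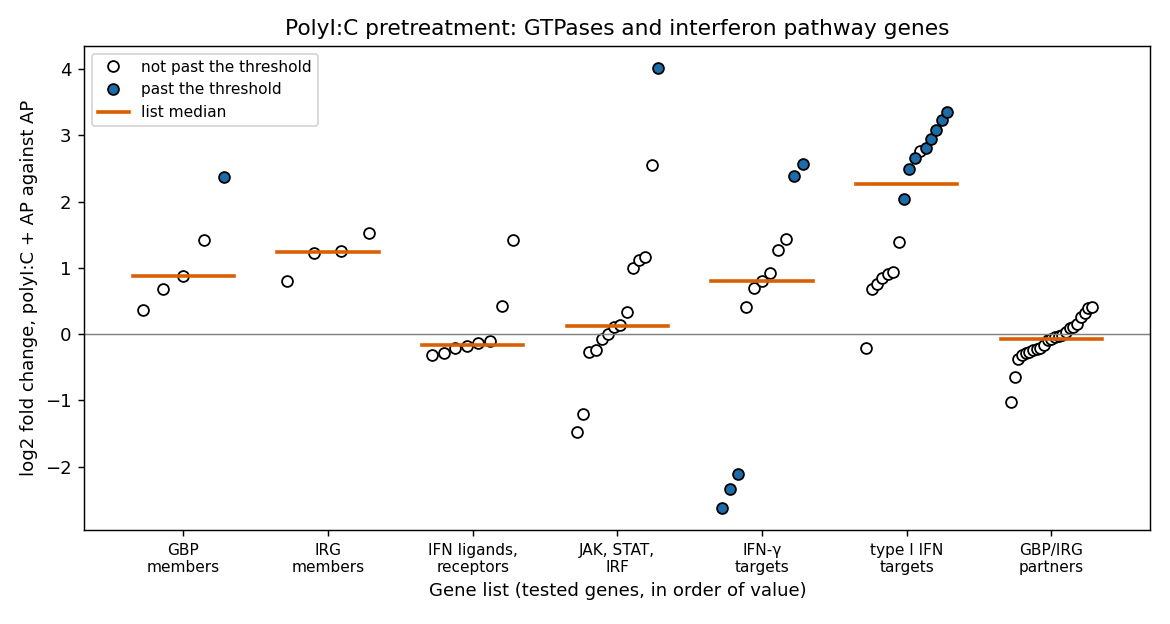
Log2 fold change of tested genes in pretreated against AP mice, by list, in order of value, with filled points past the threshold and an orange line at the list median. The type I interferon targets have the highest median (2.27) and 8 filled points, the GTPases lie above 0 with 1 filled point (Gbp3), and the partners have a median of -0.07.

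The gene whose profile was nearest to the mean profile of the 10 GTPases was Nlrc5, the transactivator of MHC class I genes, with a root mean square distance of 0.095 on the log2(TPM + 0.5) scale over the 6 mice after centring. Its levels were 1.85 and 1.56 TPM in saline mice, 2.96 and 5.43 TPM in AP mice, and 10.3 and 9.11 TPM in pretreated mice. Like the GTPases, it was higher in the second AP mouse than in the first, but it was chosen by nearness over these same 6 mice. Next came Trim12a (0.168), the class I gene H2-T22 (0.174), Apol10b (0.179) and the ADP-ribosyltransferase gene Parp12 (0.185). Among the GTPases themselves Irgm1 was nearest to the mean profile (0.174) and Gbp3 farthest (0.730).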

How the data were processed

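Total RNA of 6 pancreases was sequenced by the authors. The authors trimmed reads with Trimmomatic, aligned them to mm10 with STAR, counted them per gene with HTSeq and used DESeq2 for their own comparisons; tool versions are not given in the sources used here. The values deposited are TPM per Ensembl gene, and the step from counts to TPM, with the gene lengths used, is not given in those sources. The labels name both a ribosomal RNA depletion kit and a stranded mRNA kit. Of 22556 identifiers, 22490 were found in GENCODE M21, which gave symbols, exon lengths and coordinates.

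The TPM values were used without further scaling. A model with 1 coefficient for each of the 3 groups was fitted with limma 3.58.1 (R 4.3.3) to log2(TPM + 0.5) of genes whose mean reached 1 TPM, with a prior variance that follows log2(mean TPM × exon length + 1), and Benjamini-Hochberg adjustment over all 16814 tested genes in each comparison. Since 2 mice against 2 cannot reach an exact permutation p below 0.333, single-gene results rely on variance shared between genes. A fold on this scale understates the change of low genes. Tests were two-sided and intervals are 95%. The fit was tested on simulated data with a dispersion of 0.05, in polyI:C-pretreated AP against AP. It called 3 of 100 genes changed 2-fold and 49 of 100 changed 4-fold, with 0 false calls. A difference that did not pass in that comparison is therefore not shown to be absent. Reads were estimated from TPM × exon length, where low values (up to 20 steps) fall near whole multiples of a step (tolerance 0.1). They are estimates, because 40.3% to 54.0% of low values did so, against 18.5% to 20.8% with lengths shuffled. Python 3.11.15 made the tables.

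The 10 genes and all lists were chosen with earlier results of these data known. All 10 are reported, with every other family gene that has a row, the 3 called genes with the largest difference in each pathway list and comparison, and the 5 genes with the nearest profile. H2-Ab1, Cd74, Irf8, Irf9, Ciita, Lyz2, Gzmb, Cd3d and the B cell markers were named as members of counts or lists after their values were seen. Alternatives were other pseudocounts, filters, scaling, priors, thresholds, only the 4 mice compared, voom on estimated reads, the replicate number as a block, and each mouse left out. A B cell marker and a pathway gene are not reported here. No promoter sequence was at hand for Gbp4, Gbp6, Gbp9 and Iigp1.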

Additional observations from a re-analysis of the deposited data

How the results depend on the processing

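For the GTPases in AP against saline, 6 of 9 passed, against 3 when only the 4 mice compared were fitted, 3 with voom on estimated reads, and 2 to 7 with 1 mouse left out (2 without the second AP mouse). For polyI:C-pretreated AP against AP, 1 passed, against 0 with no filter on low values, 0 with a prior following the mean log2 value, 0 with a single prior variance, 5 at an unadjusted p, 3 with voom (Gbp2, Gbp3 and Irgm1), and 0 to 0 with 1 mouse left out. For polyI:C-pretreated AP against saline the count was 8, and 6 to 9 with 1 mouse left out. Pathway genes numbered 42 in AP against saline, 28 with median-of-ratios scaling, 28 with voom and 24 to 37 with 1 mouse left out (24 without the second AP mouse). In polyI:C-pretreated AP against AP they numbered 14, against 7 with no filter, 4 with a prior following the mean, 2 with a single prior, 23 at an unadjusted p, 8 with only the 4 mice compared, and 0 to 6 with 1 mouse left out, with 0 when either AP mouse or either polyI:C-pretreated AP mouse was absent. Against saline they numbered 46, and 35 to 45 with 1 mouse left out. The causes were not tested. Over all tested genes, 0.44% rose in polyI:C-pretreated AP against AP, between 0.083% with a prior following the mean and 1.94% at an unadjusted p, and 0% to 0.29% with 1 mouse left out. In AP against saline 18.2% rose, between 9.31% with median-of-ratios scaling and 33.0% with no fold limit. Counts given without the share of all tested genes in the same fit do not tell a change of the GTPases from a change of the whole fit.

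The difference of Gbp4 between AP and saline mice, 0.10, turned to -0.25 with median-of-ratios scaling, -0.15 with voom, -0.13 without the second saline mouse and -0.07 without the second AP mouse, and ran from -0.13 to 0.33 over all mice left out. The other 9 GTPases kept their direction in every alternative that gave a value. In AP against saline, Gbp9 lost its call without any mouse but the first AP mouse (limma adjusted p from 0.060 to 0.14), Irgm2 without the first saline, the second AP or either polyI:C-pretreated AP mouse (0.053 to 0.091), and Gbp3 (0.051) and Igtp (0.083) without the second AP mouse. Against saline, Gbp9 and Iigp1 lost theirs without either polyI:C-pretreated AP mouse (0.050 to 0.081). Iigp1 in AP against saline was 1.87 (limma adjusted p = 0.041) without the first AP mouse and 0.51 (adjusted p = 0.40) without the second.

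With the replicate number as a block, 6, 1 and 8 GTPases and 41, 12 and 45 pathway genes passed. Deviations of mice with the same number correlated at 0.0075, -0.0039 and 0.035 between groups, so the numbers were not shown to pair the mice.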
